A study of Mus musculus with 32 samples.

Results

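The 26 integrin genes and 11 laminin genes of the mouse are described here by the open chromatin around them while fibroblasts were reprogrammed to pluripotent cells. The 37 genes were the protein-coding genes, of 21887 with 1 position in the RefSeq table for GRCm38, whose symbols name an integrin alpha chain, an integrin beta chain or a laminin chain. A peak was counted for a gene when its centre lay in the gene body or within 50 kb of it, and each peak was counted once in totals over several genes. The rule for the genes uses symbols alone. Open chromatin was measured by ATAC-seq, in which the Tn5 transposase inserts sequencing adapters into DNA that is not packed away.

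The 32 samples formed 15 groups, and the data used for each group were 1 deposited list of peaks, so no difference below has a replicate check and no p-value is given. The starting cells were mouse embryonic fibroblasts at passage 2, described in the labels as OG2-MEFs, a line whose green fluorescent protein reporter comes on with the pluripotency gene Oct4 (Pou5f1). Per the series' design text, sorted intermediates came from an inducible system, in which a polycistronic lentivirus carried the reprogramming factors Oct4, Sox2, Klf4 and c-Myc (OSKM), rtTA was delivered by retrovirus, and doxycycline switched the factors on. Day 0 and sorted cells gave 10 lists, 5 with a control shRNA against luciferase and 5 with an shRNA against Ctcf: fibroblasts at day 0 (2 samples each), Thy1+ cells that keep a fibroblast surface marker (3 samples each, days 3, 6 and 9), SSEA1-Thy1- cells that have lost it (2 samples each, days 6 and 9), SSEA1+ cells that carry an early pluripotency marker (2 samples each, days 6 and 9), and GFP+ cells of day 12 (2 samples each). Another 3 lists came from day 10 cells with OSKM and a control vector, with CTCF overexpression, or with CTCF overexpression and an shRNA against Smarca5 (2 samples each). The last 2 lists came from unsorted day 12 cells with a control shRNA or an shRNA against Smarca5 (2 samples each). The labels do not say which OSKM vector the unsorted day 10 and day 12 cells carried. Infected cells were kept in stem cell medium with vitamin C. CTCF is a DNA-binding protein that anchors chromatin loops and insulates neighbouring genes, and Smarca5 is the motor of the ISWI nucleosome remodellers. The lists hold no measure of how far either protein was reduced or raised.

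Integrins are cell surface receptors made of 1 alpha and 1 beta chain, and they tie the matrix outside the cell to the actin skeleton inside it. The alpha chain largely sets the ligand: fibronectin and vitronectin through the RGD motif, collagens, laminins, or partners on other cells. Laminins are heterotrimers of an alpha, a beta and a gamma chain, and they form the sheet of the basement membrane on which epithelia sit. Fibroblasts are known for collagen- and fibronectin-binding integrins, and pluripotent cells for laminin-binding ones, Itga6 with Itgb1 above all.

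A start sequence was found in RefSeq (GRCm38.p6) for 23 of the 37 genes, at 26 starts. Those below belong to 5 genes whose start peak came and went between lists, Itga10, Itga11, Itgam, Itgax and Itgb6, followed by 3 genes with a start peak in all 15 lists, Itga4, Itgb1 and Lama5. Each runs 5′ to 3′ on the gene's strand and covers the bases before the start that lie outside the gene body. They come from chr3:96645334-96645583 (plus strand), chr9:62677605-62677854 (plus), chr7:128062390-128062639 (plus), chr7:128129300-128129525 (plus), chr2:60722604-60722853 (minus), chr2:79255176-79255425 (plus), chr8:128685404-128685653 (plus) and chr2:180225905-180226109 (minus), in that order. Capitals mark matches, on either strand, to 7 motifs searched.
Itga10: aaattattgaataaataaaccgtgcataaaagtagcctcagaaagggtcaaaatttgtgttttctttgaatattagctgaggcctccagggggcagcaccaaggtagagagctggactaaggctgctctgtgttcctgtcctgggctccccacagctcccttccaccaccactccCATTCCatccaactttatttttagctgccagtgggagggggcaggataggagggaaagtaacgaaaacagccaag
Itga11: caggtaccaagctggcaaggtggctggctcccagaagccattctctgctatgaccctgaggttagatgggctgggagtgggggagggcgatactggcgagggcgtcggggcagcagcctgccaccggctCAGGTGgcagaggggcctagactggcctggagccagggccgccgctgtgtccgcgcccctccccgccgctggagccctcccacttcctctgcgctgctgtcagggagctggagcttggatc
Itgam: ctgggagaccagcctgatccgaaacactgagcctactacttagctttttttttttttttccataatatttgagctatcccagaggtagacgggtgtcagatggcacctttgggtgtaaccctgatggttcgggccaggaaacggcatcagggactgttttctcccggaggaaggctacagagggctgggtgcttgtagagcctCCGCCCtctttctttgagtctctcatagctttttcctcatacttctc
Itgax: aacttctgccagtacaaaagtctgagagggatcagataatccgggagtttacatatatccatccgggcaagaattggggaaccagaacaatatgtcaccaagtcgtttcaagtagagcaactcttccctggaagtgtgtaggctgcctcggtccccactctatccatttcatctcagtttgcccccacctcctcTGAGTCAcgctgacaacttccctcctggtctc
Itgb6: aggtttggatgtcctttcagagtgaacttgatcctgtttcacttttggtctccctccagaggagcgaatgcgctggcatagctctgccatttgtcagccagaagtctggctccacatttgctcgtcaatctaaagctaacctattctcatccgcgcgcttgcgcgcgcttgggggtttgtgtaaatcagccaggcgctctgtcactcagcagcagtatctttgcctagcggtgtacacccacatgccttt
Itga4: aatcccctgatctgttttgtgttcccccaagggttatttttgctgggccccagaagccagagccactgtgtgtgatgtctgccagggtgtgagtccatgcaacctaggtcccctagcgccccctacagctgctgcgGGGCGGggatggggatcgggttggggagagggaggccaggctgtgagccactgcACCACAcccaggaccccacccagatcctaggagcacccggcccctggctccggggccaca
Itgb1: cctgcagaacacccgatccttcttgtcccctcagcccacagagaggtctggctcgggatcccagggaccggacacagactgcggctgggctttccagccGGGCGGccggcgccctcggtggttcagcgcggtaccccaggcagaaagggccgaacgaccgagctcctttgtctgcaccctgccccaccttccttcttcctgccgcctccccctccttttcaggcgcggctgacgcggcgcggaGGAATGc
Lama5: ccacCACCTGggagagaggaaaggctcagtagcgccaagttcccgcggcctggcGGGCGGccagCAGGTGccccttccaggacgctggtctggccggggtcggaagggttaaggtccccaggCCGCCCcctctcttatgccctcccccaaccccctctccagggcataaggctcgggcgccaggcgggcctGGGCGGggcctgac

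The motifs were AP-1 (TGANTCA), TEAD (GGAATG), RUNX (TGTGGT), SP and KLF (GGGCGG), the octamer (ATGCAAAT), the Snail and Zeb E-box (CACCTG) and the TATA box (TATAAA), read in the 250 bases before each start. The matches in the integrin and laminin sequences did not overlap each other (0 overlaps). The SP and KLF letters stood before 9 of the 26 starts (34.6%), beside 42.6% of all 21263 starts of protein-coding genes. The E-box letters stood before 8 of 26 (30.8%), beside 16.9% of all starts, among them Itga11, Itgb6 at its second start, and Lama5. AP-1 letters were found before 1 start, that of Itgax (3.85%, beside 6.13% of all starts), and TEAD letters before 3 (11.5%, beside 11.7%), those of Itga10, Itgb1 and Lamb3. RUNX letters stood before 2 starts (7.69%, beside 12.4%), and neither the octamer (1.58% of all starts) nor the TATA box (11.6%) was found before any of the 26. The 13 starts with a peak within 1 kb in all 15 lists had a median GC content of 62.4% and a median of 14 CpG dinucleotides in these 250 bases. The other 13 starts had medians of 52.0% GC and 5 CpG, and all starts had medians of 55.6% and 10. Starts more than 1 kb inside a gene lay in both sets. The other 13 held those of Itga9, Itgb7 and Lamb3 and the inner starts of Itga3 and Itgb6, and the first 13 that of Itgav. At its outer start, Itga3 had a peak in all 15 lists. Itgb1 and Lama5 had 21 and 19 CpG in the full 250 bases, and Itga10 and Itgax had 2 and 5. The printed Lama5 and Itgax sequences are shorter, at 205 and 226 bases.

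After overlapping intervals were merged, the shortest list, of unsorted day 12 control cells, held 43618 peaks, and the longest, of Thy1+ cells treated with Ctcf shRNA, held 213386. The read depth behind a list is unknown, and deeper sequencing or an added sample can lengthen it. Between 0.447% and 0.567% of the peaks of a list lay near the 37 genes. The label of the GFP+ cells was checked on marker genes: 7 of 7 pluripotency genes had a start peak in the GFP+ control list and 4 of 7 in the day 0 control list, and peaks near them numbered 108 and 61. Peaks near 7 fibroblast genes numbered 142, 170, 122, 81 and 65 from day 0 through Thy1+, SSEA1-Thy1- and SSEA1+ to GFP+ control cells, and 7 of 7 had a start peak in the first 4 of these lists and 5 of 7 in the last. Start peaks of 3 platelet genes were absent from all 15 lists (0 of 3), and those of 7 blood cell genes were found for 2 to 4 genes.

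**Figure D1:**
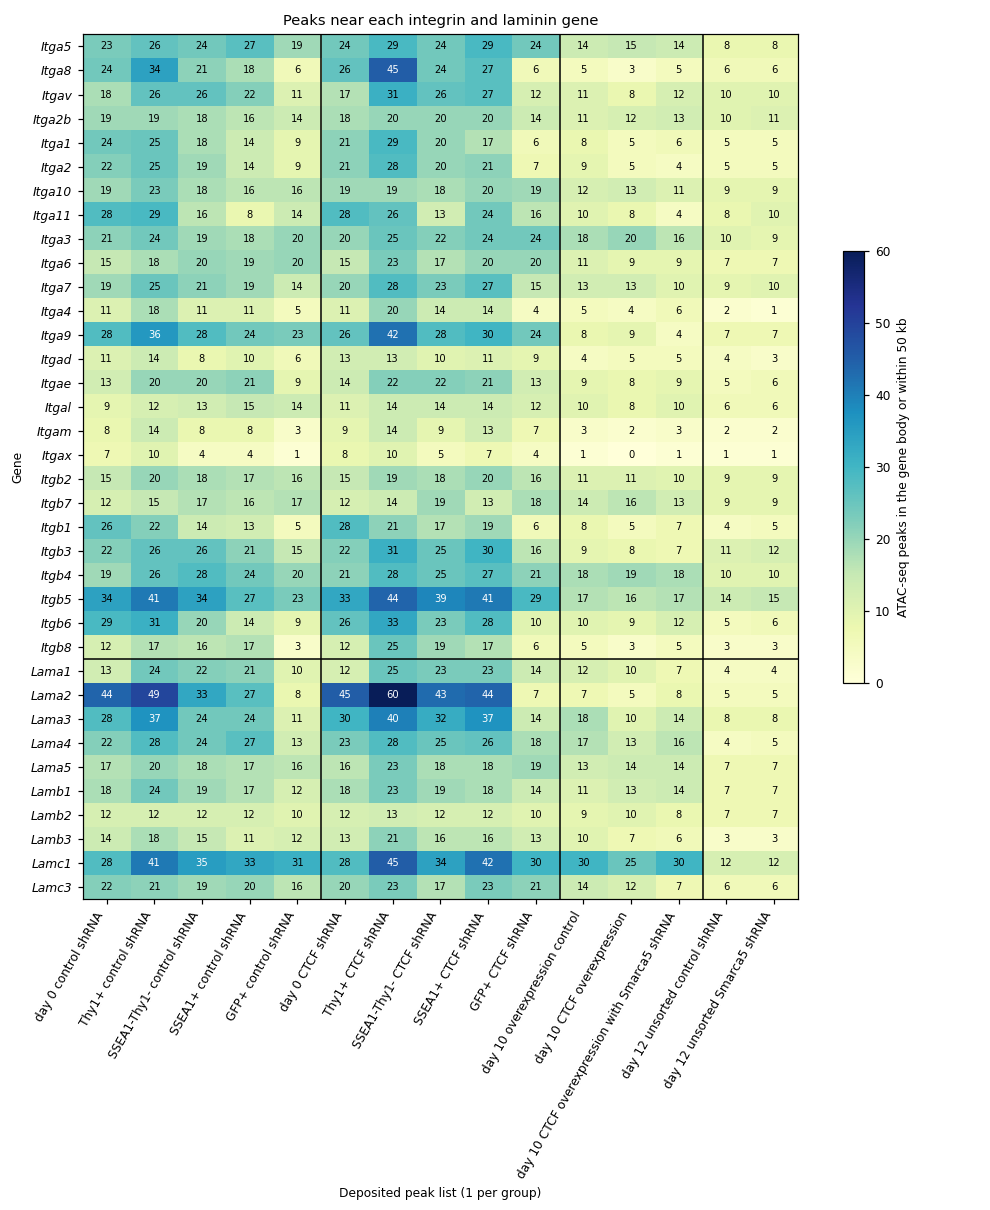
Number of ATAC-seq peaks in the body of each gene or within 50 kb of it (colour and printed number), for 36 of the 37 genes in rows (integrins above the line, laminins below) and 15 deposited peak lists in columns, without scaling for list length. Lama2 ran from 44 peaks at day 0 to 8 in GFP+ control cells, while Lamc1 held 28 and 31.

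From day 0 to GFP+ cells with control shRNA, 30 of the 37 genes had fewer peaks around them and 7 had more. Along the order of day 0, Thy1+, SSEA1-Thy1-, SSEA1+ and GFP+ cells, which all series of 5 counts below follow, the peaks near them numbered 705, 869, 711, 645 and 468. Fewer peaks were found for 63.5% of the 17657 genes tested (those with a mean of at least 4 peaks over the 15 lists, which all 37 passed) and more for 27.8%. The whole list shortened from 153962 to 91337 peaks, so a relative log2 was formed: the log2 ratio of peak numbers, with 1 peak added for single genes, minus the log2 ratio of list lengths. On this scale the peaks near the 37 genes moved by 0.16 (95% counting interval -0.01 to 0.33; -0.59 without the scaling, -0.00 when scaled by the peaks near all protein-coding genes, and 0.03 with windows of 20 kb), the median gene of the 37 by 0.27, and the median of all genes tested by 0.52. The zero of the scale is set by the whole list, and a gene with a value below 0.52 kept less than the median gene. Of the 37, 3 were at or above 1 (2-fold; 15.8% of all genes tested) and 4 were at or below -1 (4.44%). Without the scaling, 11 of the 37 were past 1 in size. The share of all genes at that setting is not given here, so this count does not set the 37 genes apart.

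**Figure D2:**
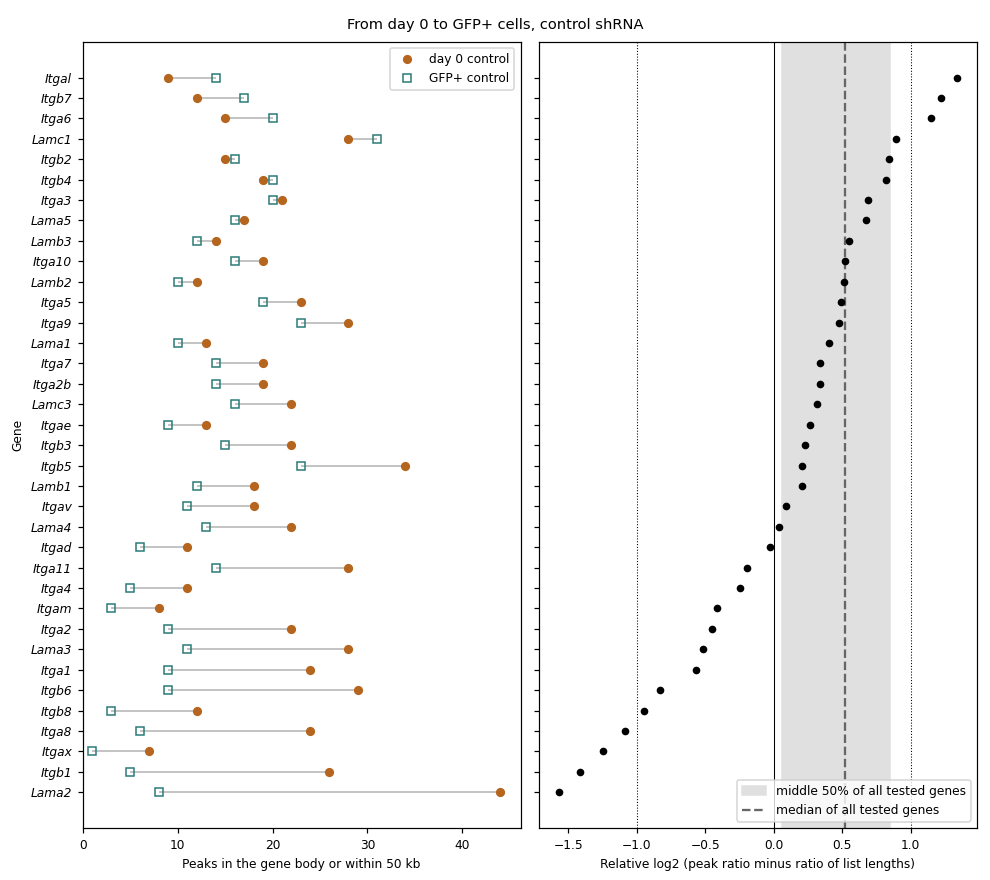
Left, peaks near each of 36 of the 37 genes in the day 0 control list (filled circles) and the GFP+ control list (open squares). Right, the relative log2 of the same genes, with the median (dashed line) and middle 50% (grey) of all 17657 genes tested and dotted lines at -1 and 1; Lama2, Itgb1, Itgax and Itga8 lie left of -1, and Itga6, Itgb7 and Itgal right of 1.

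Among the alpha chains that bind RGD ligands, all 4 had fewer peaks in GFP+ cells than at day 0, with 84 and 50 peaks in all. Itga8, which with Itgb1 binds nephronectin, had 24, 34, 21, 18 and 6 peaks from day 0 to GFP+ cells, a relative log2 of -1.08. Its count was highest in Thy1+ cells and lowest in GFP+ cells, and 3 of the 24 day 0 peaks were still present in the last list. Itga5, the fibronectin receptor chain, had 23, 26, 24, 27 and 19 peaks, and Itgav, the vitronectin receptor chain, had 18, 26, 26, 22 and 11. Itga2b, the platelet fibrinogen receptor chain, had 19, 19, 18, 16 and 14 peaks around it but no start peak in any of the 15 lists, and 3 other genes start in its window. Itga5, Itga8 and Itgav had a start peak in all 15, for Itgav at a start 2.09 kb inside the gene, with no peak within 1 kb of the gene's 5′ end in any list (0).

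The 4 collagen-binding alpha chains had 86, 94, 63, 46 and 44 peaks along the same populations. Itga1 had 24, 25, 18, 14 and 9, and its neighbour Itga2 had 22, 25, 19, 14 and 9, with 7 of the day 0 peaks in reach of both genes. Itga10, a collagen receptor chain best known from cartilage, had 19, 23, 18, 16 and 16 peaks, with 7 other genes starting in its window. Itga11, a collagen I receptor chain of fibroblasts, had 28, 29, 16, 8 and 14 peaks. Its count was lowest in SSEA1+ cells and higher again in GFP+ cells, a relative log2 of 1.31 between these lists. Of all genes tested, 2.94% were at or above 1 there. Of its 28 day 0 peaks, 7 were present in the SSEA1+ list and 11 in the GFP+ list.

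The laminin-binding alpha chains Itga3, Itga6 and Itga7 kept their peak number, with 55 at day 0 and 54 in GFP+ cells. Itga6 had 15, 18, 20, 19 and 20 peaks, a relative log2 of 1.15, and was the only one of the 3 past 1. Of the 20 GFP+ peaks near Itga6, 12 were not in the day 0 list, and 8 of its 15 day 0 peaks were held. Over the whole GFP+ list 45.5% of the peaks were absent at day 0, and near the 37 genes 37.0% (173 of 468). Itga3 had 21, 24, 19, 18 and 20 peaks, and Itga7, the main laminin receptor chain of muscle, had 19, 25, 21, 19 and 14. Each of the 3 had a start peak in all 15 lists, counted at either end of the gene for Itga6 and Itga7, for which no start was in the table.

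Itga4, which binds VCAM-1 and fibronectin, had 11, 18, 11, 11 and 5 peaks. Itga9, which binds tenascin among others, had 28, 36, 28, 24 and 23. The start of Itga9 in the table lies 105 kb inside the gene and had no peak in any list, whereas a peak lay within 1 kb of the gene's 5′ end in all 15.

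Chains known from white blood cells moved in different directions. Itgal, the alpha chain of LFA-1, had 9, 12, 13, 15 and 14 peaks (relative log2 1.34), and Itgb7, of the gut homing receptors, had 12, 15, 17, 16 and 17 (1.22). Each window held the starts of 4 other genes, and Itgal itself had no peak at either end in any list. The start of Itgb7 in the table lies 1.47 kb inside the gene. Itgax, the CD11c chain, had 7, 10, 4, 4 and 1 peaks (-1.25), and none of its 7 day 0 peaks was held in GFP+ cells (0). Its neighbour Itgam, the CD11b chain, had 8, 14, 8, 8 and 3, with 0 of 8 held, and 3 of the day 0 peaks were in reach of both Itgam and Itgax. Itgae, Itgad and Itgb2 had 13, 11 and 15 peaks at day 0 and 9, 6 and 16 in GFP+ cells.

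Of the other beta chains, Itgb1, the partner of most alpha chains named here, went from the second densest window at day 0, at 17.6 peaks per 100 kb, to 3.38 in GFP+ cells. It had 26, 22, 14, 13 and 5 peaks (relative log2 -1.42), each list lower than the one before. The start peak of Itgb1 was present in all 15 lists. The 4 day 0 peaks held in GFP+ cells were among 36 sites in its window, of which 15 were open only at day 0 or only up to Thy1+ cells. Itgb6, the epithelial partner of Itgav, had 29, 31, 20, 14 and 9 peaks (-0.83), and Itgb8, another Itgav partner, had 12, 17, 16, 17 and 3 (-0.95). From SSEA1+ to GFP+ cells, Itgb8 stood at -1.60 and Lama2 at -1.07, 2 of 37 at or below -1 (3.31% of all genes tested). Itgb3 had 22, 26, 26, 21 and 15 peaks, and Itgb5 34, 41, 34, 27 and 23. Itgb4, the partner of Itga6 in hemidesmosomes, had 19, 26, 28, 24 and 20.

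Laminin alpha chains had fewer peaks in GFP+ cells at all 5 genes, 124 at day 0 and 58 in GFP+ cells. Lama2, the alpha chain of muscle and nerve basement membrane, had the largest loss of the 37 genes, with 44, 49, 33, 27 and 8 peaks (relative log2 -1.57). Its gene body spans 636 kb, and its density fell from 5.98 to 1.09 peaks per 100 kb. Lama3, of skin laminin, had 28, 37, 24, 24 and 11 peaks, and Lama4, of vessel walls, had 22, 28, 24, 27 and 13. Lama1, of the early embryo's basement membrane, had 13, 24, 22, 21 and 10, and Lama5 had 17, 20, 18, 17 and 16. Lamb1, Lamb2 and Lamb3 had 18, 12 and 14 peaks at day 0 and 12, 10 and 12 in GFP+ cells.

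Lamc1, the gamma chain of most laminins, had 28, 41, 35, 33 and 31 peaks (relative log2 0.90), so that its count in GFP+ cells was above that at day 0. Of the 31 GFP+ peaks near Lamc1, 20 were not in the day 0 list, beside the 45.5% of all GFP+ peaks given above, and 11 of its 28 day 0 peaks were held. Lamc3, a gamma chain with a narrower expression, had 22, 21, 19, 20 and 16 peaks.

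Start peaks changed far less than the peaks around them. A start peak is a peak within 1 kb of a start in the table, or of either gene end for the 14 genes without one. Among these, Itgae and Itgb2 had peaks only at the gene end with the higher coordinate, in 4 and 12 of 15 lists. Whether they start there is not known here. A start peak was present for 29, 32, 28, 28 and 30 of the 37 genes from day 0 to GFP+ control cells, and for 67.4%, 69.5%, 68.3%, 67.6% and 67.9% of all protein-coding genes. Between day 0 and GFP+ cells, Itgae and Lamb3, whose start in the table lies 7.64 kb inside the gene, gained one, 2 of the 8 genes without it (12.2% of all such genes), and Itgb6 lost it, 1 of 29 (5.17%). Thy1+ cells gained those of Itgam, Itgax and Lamb3 over day 0 (3 of 8; 8.72% of all such genes). SSEA1-Thy1- cells lacked those of Itga11, Itgam, Itgax and Itgb6 that Thy1+ cells had (4 of 32; 3.6%). SSEA1+ cells gained the Itgae peak (1 of 9; 3.52%) and lost that of Itgb7 (1 of 28; 2.68%), and GFP+ cells had those of Itga11 and Itgb7 again (2 of 9; 8.57%). The Itga11 peak lay at chr9:62678054-62678453, centred 0.399 kb inside the gene, downstream of the sequence printed above. A peak overlapped the window of 250 bases before and 50 after the start in 3 of 15 lists, against 10 of 15 with a peak within 1 kb.

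**Figure D3:**
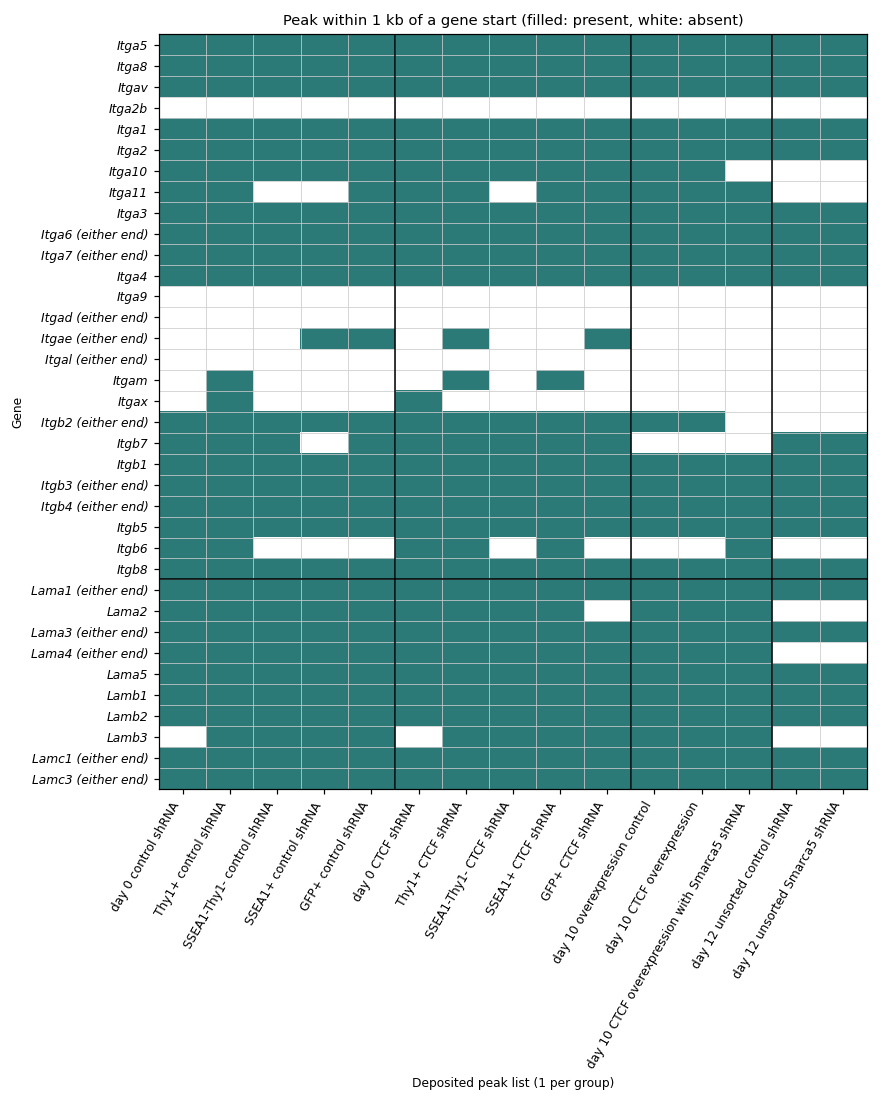
Peak within 1 kb of a start of each of 36 of the 37 genes (filled) or none (white) in the 15 lists; "either end" marks the 13 of these genes without a start in the table, for which either gene end was used. Most rows are filled or white throughout, and Itga11, Itgae, Itgam, Itgax, Itgb6 and Itgb7 change between sorted populations.

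The union of the 10 day 0 and sorted lists held 1176 sites near the 37 genes, of 267322 in all. Of these, 256 were open in all 5 control populations (21.8%, 95% Clopper-Pearson interval 19.4 to 24.2%), beside 15.6% of all sites. Another 41 (3.49%) were open in GFP+ cells alone among the control lists, beside 4.32% of all sites. Near these genes, the share still open differed by place: of 38 sites at a start of these genes open at day 0, 31 were open in GFP+ cells (81.6%, 65.7 to 92.3%), and of 77 at starts of other genes, 70 were (90.9%, 82.2 to 96.3%). In the bodies of the 37 genes, 84 of 282 were (29.8%, 24.5 to 35.5%), and in the flanks 110 of 308 (35.7%, 30.4 to 41.3%). Intervals cover counting error only. Shares by place over all sites are not given here, so these values do not set the 37 genes apart.

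Of the 705 day 0 peaks near the 37 genes, 87.9% (85.3 to 90.3%) were held in Thy1+ control cells. The share was 58.4% (54.7 to 62.1%) for the SSEA1-Thy1- list, 47.4% (43.6 to 51.1%) for the SSEA1+ list and 41.8% (38.2 to 45.6%) for the GFP+ list. Over all peaks of the day 0 list the shares were 85.3%, 48.8%, 38.4% and 32.4%. Lama2 alone held 33, 12, 7 and 4 of its 44. Its window had 76 sites, 30 of them open at day 0 only or in day 0 and Thy1+ cells only. Another 23 were open in intermediate populations but neither at day 0 nor in GFP+ cells, 11 of these in all 3 intermediate lists. The Lama2 start site, chr10:27616781-27617180, was open in all 5 control lists. Sites seen in intermediates alone made up 13 of 30 at Itgb8, 15 of 32 at Lama1 and 11 of 26 at Itgae, the genes with the highest such shares. Over all sites, 2.45% were open in Thy1+ cells alone and 21.4% in other sets of intermediates alone. Lamc1 and Itga6, by contrast, had 20 of 57 and 12 of 34 sites that were closed at day 0 and open in GFP+ cells, where 11.2% of all sites opened before GFP+ cells and stayed open there and 4.32% were open in GFP+ cells alone.

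**Figure D4:**
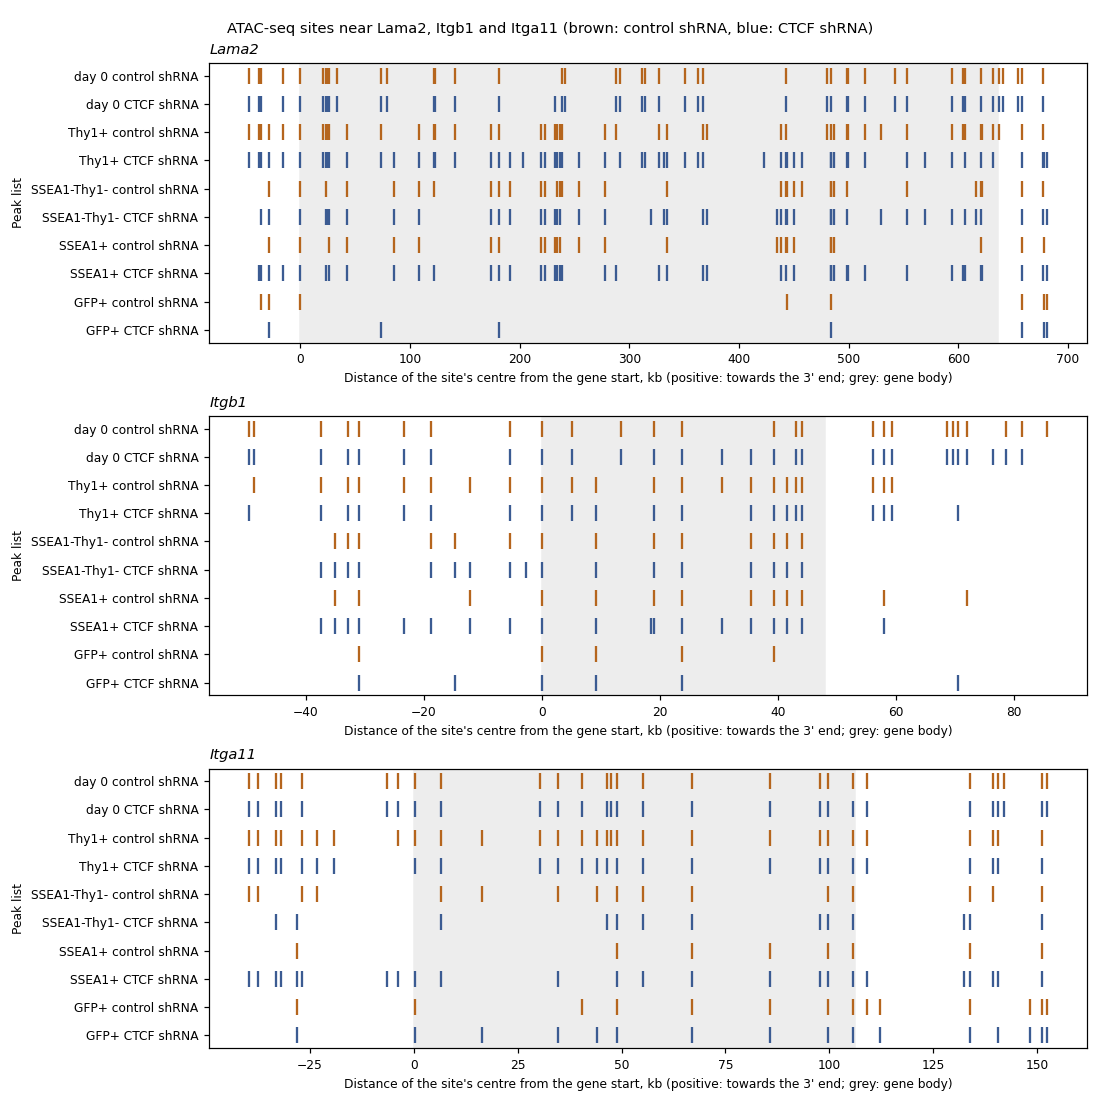
Sites near Lama2, Itgb1 and Itga11 (ticks) by distance from the gene start in kb, in the 10 day 0 and sorted lists (control shRNA brown, Ctcf shRNA blue; gene body grey). The Lama2 window holds 8 peaks in GFP+ control and 7 in GFP+ Ctcf shRNA cells, and the SSEA1+ Ctcf shRNA row of Itga11 holds ticks at day 0 positions that the SSEA1+ control row lacks.

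Ctcf shRNA left the peaks near the integrin and laminin genes close to the list as a whole at every population. At day 0, 705 peaks with control shRNA and 706 with Ctcf shRNA gave a relative log2 of -0.00 (95% counting interval -0.16 to 0.15). None of the 37 genes passed 1 in either direction (0; 0.00566% of all genes tested above, 0.0113% below). More peaks were found at 14 genes (31.4% of all) and fewer at 12 (26.2%). The largest differences were 24 and 21 peaks at Itga1 and 29 and 26 at Itgb6. Itgax had a start peak with Ctcf shRNA alone, 1 of 8 (1.78% of genes without one gained it), and none of 29 was lost (0; 1.21%). Of the 705 control peaks 31 were missing with Ctcf shRNA (4.40%, beside 4.45% of all peaks).

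In Thy1+ cells, 869 peaks with control shRNA and 955 with Ctcf shRNA gave 0.00 (-0.13 to 0.14), with 27 genes higher (63.2% of all) and 7 lower (18%), and none past 1 (0; 0.0283% above, 0.00566% below). Itga8 had 34 and 45 peaks, Lama2 49 and 60, and Itgb8 17 and 25. Of the 12 peaks gained near Itga8, 1 was open at day 0, and of the 8 gained near Itgb8, none was (0). None of the 8 gained near Lamc1 was either (0), and 5 of the 18 near Lama2 were. Over all gained peaks the share was 19.1%, and near the 37 genes 30 of 150 were open at day 0. Itgae, whose start is not known here, gained a peak at its end with the higher coordinate, counted as a start peak (1 of 5, 5.69%). Itgax lacked the start peak of the control (1 of 32, 0.999%). In SSEA1-Thy1- cells, 711 and 757 peaks gave -0.03 (-0.17 to 0.12), with 22 genes higher (56.4%) and 7 lower (21.1%), none past 1 (0; 0.0227% above, 0.00566% below), and no start peak within 1 kb changed (0; 4.94% gained, 1.44% lost; 2 genes with a start window of 2.5 kb). Lama2 had 33 and 43 peaks there, and Lama3 24 and 32.

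SSEA1+ cells had the largest shift in count, 645 peaks with control shRNA and 827 with Ctcf shRNA, and the whole list lengthened with it, from 135749 to 183640. The relative log2 was therefore -0.08 (-0.23 to 0.07), the median gene of the 37 was at -0.13 and that of all genes at -0.17. More peaks were found at 31 of 37 genes (83% of all genes tested) and fewer at 3 (6.95%). Itga11 alone passed 1, with 8 peaks in control and 24 in Ctcf shRNA cells (1.04; 0.413% of all genes tested were at or above 1, and 0.0566% at or below -1). That call was absent with windows of 20 or 100 kb in place of 50 kb (0 genes past 1). Near Itga11, 16 peaks were gained and 0 lost, and 15 of the 16 were open at day 0. The list held 22 of its 28 day 0 peaks, against 7 with control shRNA. Itgb6 had 14 and 28 peaks (0.52), with 13 of the 14 gained open at day 0. Lama2 had 27 and 44, Itgb5 27 and 41, and Lama3 24 and 37. Near all 37 genes, 241 of the 827 peaks were gained (29.1%, beside 32.0% of all peaks of the list), and 201 of these were open at day 0 (83.4%, 78.1 to 87.9%; all gained peaks 81.6%). The share for these genes was thus close to that of the whole list.

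Start peaks in SSEA1+ cells with Ctcf shRNA included those of Itga11, Itgam, Itgb6 and Itgb7, which the control list lacked, 4 of 9 (8.29% of such genes). The control's peak at the higher-coordinate end of Itgae, counted as a start peak, was missing, 1 of 28 (1.41%). These 5 changes became 3 with a start window of 2.5 kb and 3 with 0.5 kb. Itga11, Itgb6 and Itgb7 had that peak in the day 0 control list, and Itgam did not. Peaks near the fibroblast markers numbered 81 with control and 150 with Ctcf shRNA in SSEA1+ cells, beside 142 at day 0, and those near the pluripotency markers numbered 88 and 96. Other marker sets had more peaks too: 75 and 100 near blood cell genes, 79 and 108 near endothelial genes. Keratinocyte genes had 38 and 58, and platelet genes 34 and 48. These counts are not scaled, and the whole list lengthened from 135749 to 183640 peaks. The part of a mixture of cell types in these counts was not tested.

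**Figure D5:**
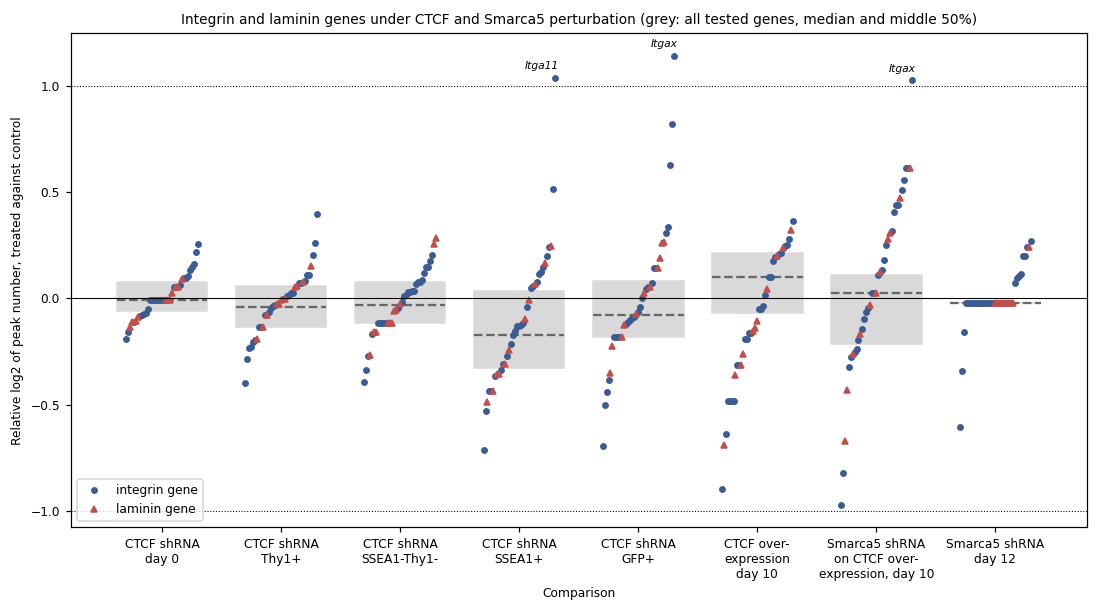
Relative log2 of peak number, treated against control, for the 26 integrin genes (circles) and 11 laminin genes (triangles) in 8 comparisons, with the median (dashed) and middle 50% (grey) of all 17657 genes tested and dotted lines at -1 and 1. Genes past a line are named: Itga11 in SSEA1+ cells, and Itgax, with 4 or fewer peaks in each list, in GFP+ cells and at day 10.

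In GFP+ cells, 468 peaks with control and 523 with Ctcf shRNA gave -0.02 (-0.20 to 0.16), with 26 genes higher (56.6%) and 6 lower (21.5%). Itgax was past 1 with 1 and 4 peaks (1.14; 0.362% of genes at or above 1, 0.193% at or below -1), a difference of 3 peaks, and no gene was past 1 with a window of 100 kb (0). Itgb5 had 23 and 29 peaks, Itga5 19 and 24, Lama4 13 and 18, and Lamc3 16 and 21. Lama2 lacked its start peak with Ctcf shRNA, the only one of the 10 day 0 and sorted lists without it (1 of 30 lost; 1.34% of such genes), and no start peak was gained (0 of 7; 4.23%). With a start window of 2.5 kb, 2 genes changed. Of the 468 control peaks 57 were missing (12.2%, beside 14.3% of all), and 112 of 523 were gained (21.4%, beside 24.3%).

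Across the 5 pairs, which share no list, the gains and losses fell on different sites in most cases. None of the 1176 sites was lost in 3 or more pairs (0), 31 were lost in 2 (2.64%, beside 1.92% of all sites) and 222 in 1 (18.9%, beside 17.9%). In 1 pair 401 were gained (34.1%, beside 34.5%) and in 2 pairs 108 (9.18%, beside 9.35%). Another 11 were gained in 3 (0.935%, beside 1.15%) and 1 in 4 (0.0850%, beside 0.0576%). Lama5 had 2 of the sites gained in 3 pairs, both in the gene body, open at day 0 and in Thy1+ control cells and closed in the later control lists. Itgb6 also had 2, one in the body and the other 8.69 kb before the gene.

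At day 10, CTCF overexpression went with 366 peaks near the 37 genes, against 405 with the control vector, a relative log2 of -0.05 (-0.25 to 0.16). Fewer peaks were found at 24 genes (35% of all genes tested) and more at 11 (30.8%), the median of the 37 was -0.11, and that of all genes was 0.10. None passed 1 in either direction (0; 0.227% above, 0.385% below) and no start peak changed (0; 3.57% gained, 1.22% lost). Lama3 had 18 and 10 peaks, control first, Lamc1 30 and 25, Itga2 9 and 5, Lama4 17 and 13, Itga1 8 and 5, and Itgav 11 and 8. Laminin alpha chains together had 67 and 52 peaks, collagen-binding alpha chains 36 and 29. Of the control peaks, 74 of 405 were missing (18.3%, 14.6 to 22.4%), beside 16.9% of all peaks, and 35 of 366 were gained (9.56%, beside 10.9%).

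With Smarca5 shRNA added to CTCF overexpression, 365 peaks stood against 366, a relative log2 of 0.02 (-0.19 to 0.24). More peaks were found at 18 genes (25.4% of all) and fewer at 16 (45.4%). Itgax had 0 peaks with CTCF overexpression and 1 with the added shRNA, which put it past 1 by count alone (0.861% of all genes were at or above 1), and no gene was at or below -1 (0; 0.816%). Itga9 had 9 and 4 peaks, Lamc1 25 and 30, Lamc3 12 and 7, Itga11 8 and 4, Itga3 20 and 16, and Itgav 8 and 12. Itga10 and Itgb2 lacked the start peak they had with CTCF overexpression alone, 2 of 28 (4.25%), and Itgb6 had one, 1 of 9 (1.84%). That of Itgb2 was at the gene end with the higher coordinate, its start not being known here. This comparison and the one before share the CTCF overexpression list, so a low count in that list alone would give a fall followed by a rise. At Lamc1 the 3 lists held 30, 25 and 30 peaks, at Lama3 18, 10 and 14, and at Itgav 11, 8 and 12, with the control vector first and the combined treatment last. At Itga2 they held 9, 5 and 4, at Itga11 10, 8 and 4, and at Lamc3 14, 12 and 7. A return towards the control was not tested.

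In unsorted day 12 cells, the control list had 244 peaks near the 37 genes and the Smarca5 shRNA list 251, a relative log2 of 0.02 (-0.24 to 0.28). At 25 genes the numbers were equal, 9 genes had more (18% of all) and 3 fewer (14.9%), none passed 1 (0; 0.0396% above, 0.447% below), and no start peak changed (0; 1.15% gained, 1.15% lost). Itga11, with 8 and 10 peaks, differed most. Start peaks were present for 23 of 37 genes in each list, and for 61.3% of all genes in the control list and 61.1% in the other. Those of Itga10, Itga11, Itgb2, Lama2, Lama4 and Lamb3 were among the 14 absent, in the 2 shortest lists of the series.

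Other genes of cell adhesion gave a frame for these values. From day 0 to GFP+ control cells, peaks near 20 integrin adaptor and focal adhesion genes numbered 509 and 358, a relative log2 of 0.25 (0.05 to 0.44), with 1 gene at or above 1, Parvb, and 1 at or below -1, Lims1, which encode parvin and PINCH adaptors of the integrin-linked kinase. Peaks near 18 other basement membrane and integrin ligand genes numbered 379 and 211 (-0.09, -0.34 to 0.16), with Agrn, the proteoglycan agrin, at or above 1, and Tnc and Postn, the matrix proteins tenascin C and periostin, at or below -1. Peaks near 44 collagen chain genes numbered 914 and 424 (-0.35, -0.52 to -0.19), with 2 genes at or above 1 and 13 at or below -1. Of all genes tested, 15.8% were at or above 1 and 4.44% at or below -1. Col4a1 and Col4a2 are in both the ligand set and the collagen set, so these sets share peaks. In SSEA1+ cells with Ctcf shRNA, peaks numbered 430 with control and 620 with Ctcf shRNA near the focal adhesion genes, 275 and 391 near the ligands, with Tnc past 1, and 646 and 964 near the collagens, with Col5a1 past 1. Relative to list length these were 0.09 (-0.09 to 0.27), 0.07 (-0.15 to 0.30) and 0.14 (-0.00 to 0.29), beside -0.08 for the integrin and laminin genes.

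Windows of 50 kb have a soft edge. In the day 0 control list 69 peaks lay between 40 and 50 kb outside the 37 genes and 71 between 50 and 60 kb, and in the GFP+ control list these numbers were 56 and 37.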

How the data were processed

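ATAC-seq peaks were taken from 15 lists that the authors deposited, 1 per group, each named by all samples of that group. The builds named are mm10 and GRCm38, and the tools named are MACS2, Bowtie2, Picard, SAMtools, cutadapt, Trim Galore and FastQC, per the submitters' processing notes. Not given in the sources used here are versions, settings, the peak threshold, any Tn5 shift and the pooling of samples. The deposited intervals are chromosome, start and end positions of 400 bp, and the deposited score is 0 throughout, so peaks could not be ranked and depth is unknown.

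Overlapping intervals were merged (Python 3.11.15, NumPy 2.4.6, SciPy 1.17.1). Genes were matched by symbol to the RefSeq table (GRCm38.p6). Peaks were assigned by centre within 50 kb. A call was a relative log2 of at least 1 or at most -1, with a pseudocount of 1 peak, among genes with a mean of at least 4 peaks. Lists shared a peak when 1 bp or more overlapped, compared only within the day 0 and sorted lists, the day 10 lists and the day 12 lists, which use different positions. Log2 intervals are exact conditional binomial and shares Clopper-Pearson, both at 95%, for counting error only. Thresholds were checked on simulated data, made by thinning the day 0 control list near chosen genes that had many peaks. That check did not cover variation between separately made lists or genes with few peaks. The text names genes past a call, those with the largest differences in peak number, and those whose start peak changed. The members and the comparison lists were chosen with earlier results of these data known. Of the 37 genes, 1 is counted in all totals but is not reported here by itself.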

Additional observations from a re-analysis of the deposited data

Results flagged for a closer look

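Peaks counted as start peaks at 2 white blood cell integrin genes moved in opposite directions with Ctcf shRNA in different populations. Itgae, whose start is not known here, gained a peak at its end with the higher coordinate in Thy1+ cells, where 22 peaks lay near the gene. In SSEA1+ cells Itgae lacked the control's peak at that end. Itgax gained one at day 0, where 8 peaks lay near it, and lacked that of the control in Thy1+ cells. With 1 list per group, neither difference between populations was tested.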

How the results depend on the processing

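No paired analysis was possible because each group has 1 pooled peak list with no replicates. For the same reason no replicate could be left out, and a stricter peak threshold could not be tried because every score is 0. Without scaling for list length, the log2 of peaks near the 37 genes was -0.59 for GFP+ against day 0 (0.16 scaled) and 0.36 for Ctcf shRNA in SSEA1+ cells (-0.08 scaled), and the number of genes past 1 was 11 for GFP+ against day 0, 2 for Ctcf shRNA in GFP+ cells, 1 for CTCF overexpression and 2 for Smarca5 shRNA with CTCF overexpression. For these and the other altered settings, shares of all genes are not given here. With windows of 20 or 100 kb, the call of Itga11 in SSEA1+ cells was lost (0 genes). With 100 kb, 0 genes passed 1 for Ctcf shRNA in GFP+ cells and for Smarca5 shRNA with CTCF overexpression, and with 20 kb the latter had 3. A pseudocount of 0.5 gave 1 gene for CTCF overexpression and 2 with Smarca5 shRNA. With a start window of 2.5 kb, start peaks changed with Ctcf shRNA at 3 genes of SSEA1+ cells, 2 of GFP+ cells and 2 of SSEA1-Thy1- cells, and with 0.5 kb at 3 of SSEA1+ cells. The cause was not tested. The 27 shares of lost peaks, 27 of gained peaks and 12 of held peaks stayed within their intervals. Leaving out peaks at starts of other genes, chosen after seeing the data, gave 0.08 for GFP+ against day 0 and kept the other comparisons between -0.07 and 0.04. List length cannot be separated from depth.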
